A study of Homo sapiens with 3 samples.

Results

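The genes described here build and run the mitotic spindle, hold chromosomes at the kinetochore, or divide the cell at the end of mitosis. A fixed set of 54 gene symbols, chosen with earlier results of these data known, was looked up on an Affymetrix HG-U133 Plus 2 array. Every probe set annotated to exactly 1 of these symbols was used. All 54 genes were found, with 111 probe sets, among the 19775 genes measured. A probe set is a group of short probes aimed at 1 transcript, 25 of the genes had 1 probe set, and the other 29 had between 2 and 6. The material was T47D, an established line of human breast cancer cells of luminal type in which estrogen receptor α is present. Cells spent 4 h in medium with 10% serum stripped of hormones by charcoal and then received 1 of 3 additions for 3 h. These were ERα17p at 1 µM, a synthetic peptide copied from a stretch of the receptor, estradiol at 1 µM, the natural hormone, or ethanol at 0.1% as the vehicle. Whether the cells given peptide or hormone received the same solvent was not found in the labels, nor whether the 3 dishes were separate cultures. Times other than 3 h, which the series title implies, were not analysed here.

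Mitosis is run by cyclin-dependent kinase 1 with its cyclins, which start chromosome condensation and spindle assembly. Kinetochores then tie each chromosome to spindle microtubules, a checkpoint holds the cell until all are attached, and a ubiquitin ligase ends the phase by destroying cyclin B and securin before the cell is pinched apart. Most of these genes are transcribed in G2 and mitosis, and estrogen is a known mitogen of cultured breast cancer cells with the receptor. Their promoters are known for a cell cycle homology region (CHR), read by the MuvB complexes, and for CCAAT boxes, read by the factor NF-Y.

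With 1 array in each group there was no measure of spread between cultures, and no significance test was possible. Values were treated as log2 and are relative to an unstated baseline for each probe set. A value near 0 is therefore close to that baseline, and says nothing of how much RNA was present. For the same reason the identity of the cells could not be checked against levels of luminal genes. Each SD describes the n probe sets of 1 gene and covers probe spread within these arrays alone. The vehicle array stood apart from the others in measures of the whole array. Leaving out controls, the SD across probe sets was 0.166 on the ERα17p array, 0.158 on the estradiol array and 0.434 on the vehicle array. Probes against 18S ribosomal RNA averaged −0.0071 on the ERα17p array, 0.11 on the estradiol array and −1.76 on the vehicle array (n = 3 probe sets). Control probe sets for poly-A spikes averaged 0.16, 0.40 and −0.30 in the same order (n = 24 probe sets). Those for hybridisation spikes averaged −0.12, −0.099 and 0.048 (n = 18 probe sets). For ACTB, the 3′ probe set minus the 5′ one stood at −0.17, −0.29 and 0.52 in the same order. TFF1, a gene known to be induced by estrogen, had −0.71 on the ERα17p array, 0.028 on the estradiol array and 2.22 on the vehicle array, opposite to that known direction, while PGR, another such gene, had −0.097, 0.45 and −0.98. Their part in the differences from the vehicle array given below was not tested. In RNA from whole cultures, fewer cells in mitosis and less of these RNAs per cell cannot be told apart.

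The promoters of the most strongly differing genes are shown first, since promoter sequence did not enter the choice of the gene set. These 6 promoters show how the placing of the motifs varies. RefSeq promoters on build GRCh38.p14, running from 250 bases before to 50 bases after the most upstream listed start, were found for 44 of the genes. The 6 shown belong to the genes that stood furthest from the vehicle array and had such an entry. FAM83D, which stood first, had none. Capitals mark the CHR letters TTTGAA and the CCAAT box on either strand, so that they also appear as TTCAAA and ATTGG. A match to either motif was required for a promoter to be shown, and no gene was passed over for lacking both. The ASPM promoter (chr1:197146620-197146919, minus strand) holds 4 CCAAT boxes and 1 CHR match. That of CENPA (chr2:26785806-26786105, plus strand) holds 2 and 1, and that of CDK1 (chr10:60778081-60778380, plus strand) 1 and 1. In KIF18A (chr11:28108107-28108406, minus strand) and KIF14 (chr1:200620702-200621001, minus strand) a single CCAAT box lies just upstream of a single CHR match. ANLN (chr7:36389612-36389911, plus strand) has 2 CHR matches side by side and no CCAAT box in this window.
ASPM: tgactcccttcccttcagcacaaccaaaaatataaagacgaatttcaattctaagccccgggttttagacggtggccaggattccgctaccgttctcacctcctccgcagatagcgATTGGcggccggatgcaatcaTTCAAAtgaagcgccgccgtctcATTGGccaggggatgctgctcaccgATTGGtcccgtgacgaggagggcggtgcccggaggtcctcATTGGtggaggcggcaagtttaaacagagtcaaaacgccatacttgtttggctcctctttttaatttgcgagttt
CENPA: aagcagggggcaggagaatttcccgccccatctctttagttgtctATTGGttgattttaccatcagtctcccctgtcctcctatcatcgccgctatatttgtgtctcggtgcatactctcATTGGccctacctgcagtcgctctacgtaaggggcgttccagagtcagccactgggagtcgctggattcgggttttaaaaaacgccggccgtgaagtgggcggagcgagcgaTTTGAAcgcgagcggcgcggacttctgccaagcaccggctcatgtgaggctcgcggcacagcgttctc
CDK1: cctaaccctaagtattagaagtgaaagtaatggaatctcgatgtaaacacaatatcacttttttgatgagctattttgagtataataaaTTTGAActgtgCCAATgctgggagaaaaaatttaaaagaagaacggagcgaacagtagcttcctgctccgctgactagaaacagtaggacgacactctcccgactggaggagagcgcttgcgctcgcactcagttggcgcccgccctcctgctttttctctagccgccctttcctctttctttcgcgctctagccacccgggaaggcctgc
KIF18A: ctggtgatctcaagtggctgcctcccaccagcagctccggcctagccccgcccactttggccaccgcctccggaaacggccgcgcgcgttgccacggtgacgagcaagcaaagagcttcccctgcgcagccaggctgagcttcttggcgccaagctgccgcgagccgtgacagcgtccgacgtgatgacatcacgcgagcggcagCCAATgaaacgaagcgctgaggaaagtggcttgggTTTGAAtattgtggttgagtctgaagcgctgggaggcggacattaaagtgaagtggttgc
KIF14: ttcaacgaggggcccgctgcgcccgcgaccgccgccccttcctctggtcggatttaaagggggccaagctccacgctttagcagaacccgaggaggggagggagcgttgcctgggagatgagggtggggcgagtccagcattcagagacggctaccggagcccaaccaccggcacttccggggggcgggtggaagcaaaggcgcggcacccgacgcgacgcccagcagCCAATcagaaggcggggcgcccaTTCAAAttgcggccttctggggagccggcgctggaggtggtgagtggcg
ANLN: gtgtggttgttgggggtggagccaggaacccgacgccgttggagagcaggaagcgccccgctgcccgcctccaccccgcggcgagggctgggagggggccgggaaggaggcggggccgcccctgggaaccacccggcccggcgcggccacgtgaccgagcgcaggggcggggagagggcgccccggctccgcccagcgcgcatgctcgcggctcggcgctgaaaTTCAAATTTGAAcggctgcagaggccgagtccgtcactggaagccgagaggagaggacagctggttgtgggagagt

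Over the 44 promoters, 31 (70.5%) held TTTGAA on either strand, against 15.5% of the 27305 genes with a promoter of this length. A CCAAT box was found in 34 (77.3%) of them, against 35.7% of all. Both occurred together in 26 (59.1%), against 6.13%, and 21 (47.7%) had at least 2 CCAAT boxes, against 11.3%. The matches lay close to the start. TTTGAA was centred within the 50 bases before the start in 15 of 44 promoters (34.1%), against 2.59% of all, and a CCAAT box between 100 and 50 bases before it in 25 (56.8%), against 13.4%. The variant TTTAAA was present in 15 (34.1%), against 12.4%. The palindromic estrogen response element, GGTCA and TGACC parted by any 3 bases, was found in 0 of the 44 and in 0.0659% of all promoters, which says only that these letters are not in this window. TTTCCCGC and TTTGGCGC, forms of the E2F site, were each found in 1 of the 44 (2.27%), against 1.66% and 0.659% of all promoters. Both strands were searched for each motif, and each was counted whether or not it overlapped another. All of these matches are letters in a sequence, not measured binding.

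**Figure D1:**
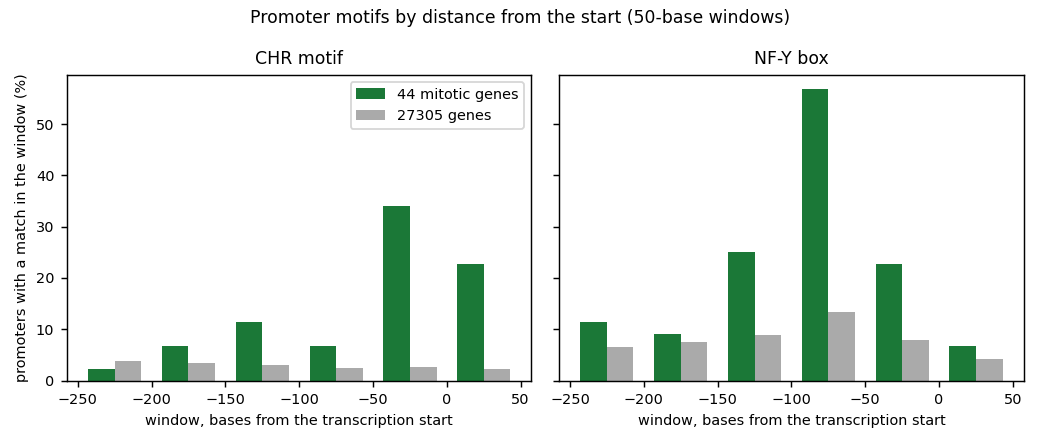
Share of promoters (%) with a CHR match (TTTGAA, left) or an NF-Y box (CCAAT, right) on either strand in each 50-base window, by distance in bases from the transcription start. Green bars are the 44 mitotic genes with a promoter and grey bars all 27305 genes. The highest green bars are 34.1% in the window from −50 to 0 for the CHR and 56.8% from −100 to −50 for the NF-Y box.

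The array differences of genes with and without these motifs overlapped. In ERα17p minus vehicle the 30 genes with a CCAAT box and either CHR form had a median difference of 0.96, and the 14 without that pair 0.80. In estradiol minus vehicle the medians were 0.84 and 0.63. At least 1.5-fold higher were 19 of the 30 and 10 of the 14 with ERα17p, against 6.88% of all genes. With estradiol these counts were 20 of the 30 and 8 of the 14, against 6.48%. With ERα17p the 30 genes ran from −0.10 to 2.12 and the 14 from −0.23 to 2.20. With estradiol they ran from −0.28 to 2.17 and from −0.31 to 1.99. For TTTGAA alone, the 31 genes with it and the 13 without had medians of 0.87 and 0.84 with ERα17p. With estradiol those medians were 0.82 and 0.68. CDC20 and MKI67 each held 2 TTTGAA matches and 2 CCAAT boxes.

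On the array from ERα17p-treated cells, 33 of the 54 genes (61.1%) exceeded the vehicle array by at least 1.5-fold and 0 lay at least 1.5-fold below it. Among all 19775 genes, 6.88% were that much higher and 8.76% that much lower. Their median difference was 0.80, against 0.0011 over all genes, and 22 of them (40.7%) were at least 2-fold higher, against 1.9%, and 0 that much lower, against 1.87%. Above 0 lay 49 of the 54, against 50.1% of all genes. With estradiol, 33 of 54 were likewise at least 1.5-fold higher, against 6.48% of all genes, and 0 were that much lower, against 8.42%. The median difference was 0.67, against −0.0043 over all genes, and 20 genes (37.0%) were at least 2-fold higher, against 1.57%, and 0 that much lower, against 1.63%. Above 0 lay 50 of the 54, against 49.4% of all genes. Both comparisons use the same vehicle array, so they are not separate evidence. Because the 54 genes were chosen with earlier results of these data known, their excess over all genes is a description, not independent support. At the edge of the 1.5-fold limit, TPX2 stood just inside at 0.61 and AURKA just outside at 0.58 for ERα17p, and CENPF inside at 0.60 and CKAP2 outside at 0.58 for estradiol.

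The vehicle array held the lowest values of most of these genes. On the ERα17p array the gene values ran between −0.19 and 0.31, with a median of 0.075. The estradiol array held them between −0.22 and 0.21, with a median of 0.046. On the vehicle array they ran from −2.19 to 0.090, with a median of −0.65, and 16 of the 54 were at or below −1. The vehicle array had the lowest of the 3 values for 49 of the 54 genes, and for 40.4% of all genes. In the other 5 the vehicle value was not the lowest: AURKB and CENPN were lowest with estradiol, and CDC20, KIF2C and MKI67 with ERα17p.

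**Figure D2:**
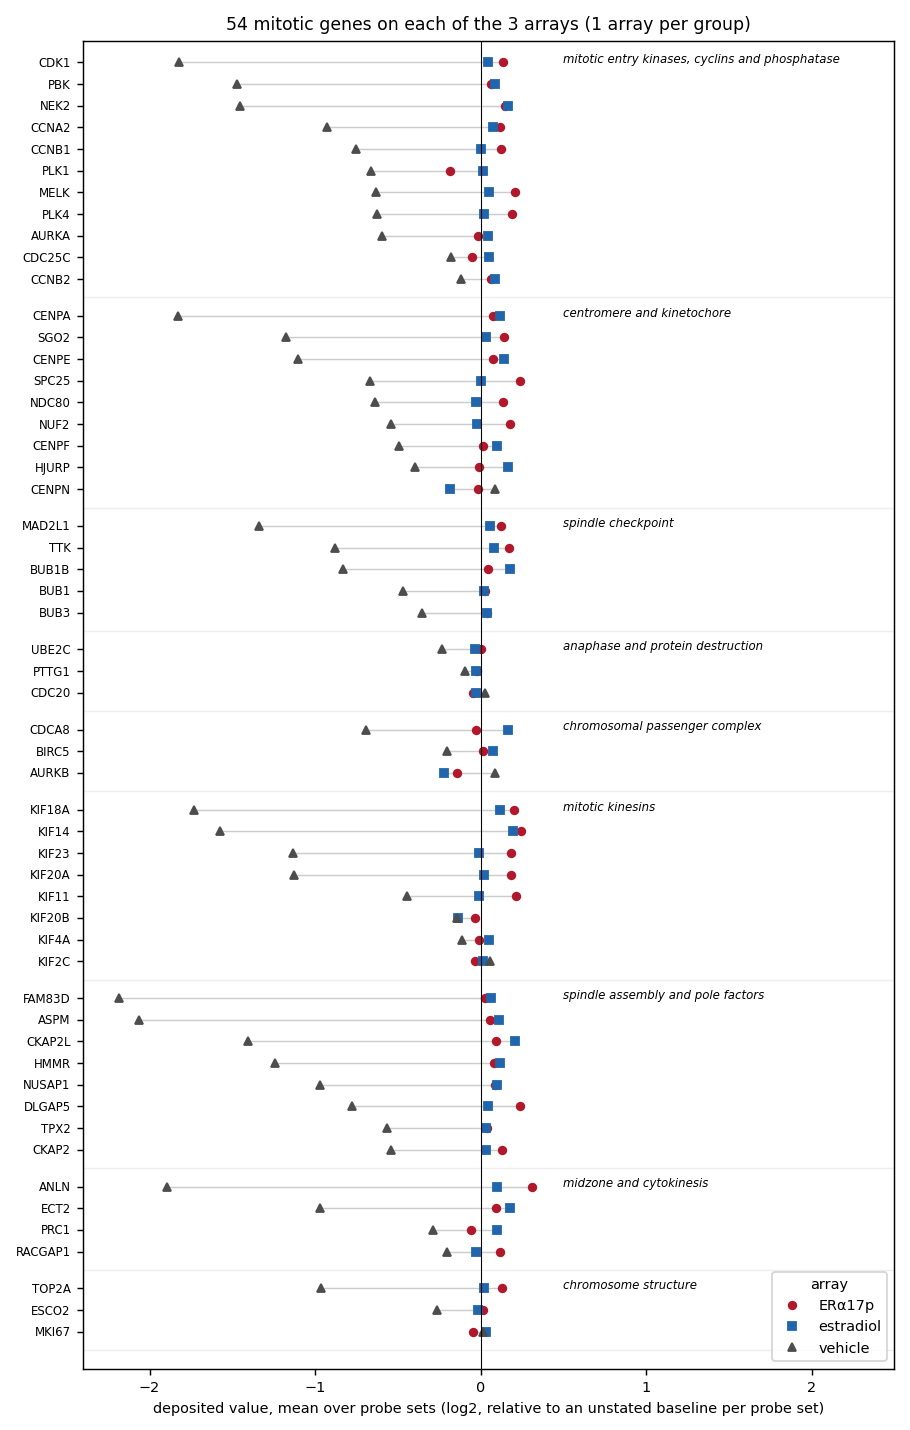
Deposited value of each of the 54 genes (log2, relative to an unstated baseline, mean over its probe sets) on the ERα17p array (red circles), the estradiol array (blue squares) and the vehicle array (grey triangles), grouped by role, with 1 array per group. The vehicle values spread from −2.19 to 0.090, while those of both treated arrays stay between −0.22 and 0.31.

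Of the 11 genes of mitotic entry among the 54, 7 were at least 1.5-fold higher with ERα17p and 9 with estradiol, by amounts that differed widely. CDK1, the kinase that drives entry into mitosis, had 0.13 on the ERα17p array, 0.044 on the estradiol array and −1.82 on the vehicle array. Its difference from the vehicle was 1.95 ± 1.02 with ERα17p and 1.86 ± 1.05 with estradiol (SD, n = 4), so the treated arrays lay close together and far above the vehicle array. Among the cyclins that activate it, CCNB1 was higher by 0.87 ± 0.0026 with ERα17p and 0.76 ± 0.028 with estradiol (SD, n = 2). CCNA2 was higher by 1.05 ± 0.62 and 1.01 ± 0.59 (SD, n = 2). CCNB2, another B-type cyclin, differed by only 0.18 ± 0.31 and 0.20 ± 0.29 (SD, n = 3), below the 1.5-fold limit and within its probe spread. CDC25C, a phosphatase that switches CDK1 on, was also below the limit, at 0.12 ± 0.25 and 0.23 ± 0.25 (SD, n = 3).

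Among the other kinases of this group, NEK2, which helps to part the centrosomes, had 0.15 with ERα17p, 0.17 with estradiol and −1.45 with the vehicle. PBK, a kinase active in mitosis, stood at 0.063, 0.088 and −1.47 on the same arrays. NEK2 was thus higher than the vehicle by 1.60 ± 1.41 with ERα17p and 1.62 ± 1.83 with estradiol (SD, n = 2), and PBK by 1.54 and 1.56. In both genes the treated arrays lay together, above the vehicle array. PLK1, which acts from centrosome maturation to cytokinesis, had −0.19 with ERα17p, 0.012 with estradiol and −0.66 with the vehicle. It therefore passed the 1.5-fold limit with estradiol, at 0.67, and not with ERα17p, at 0.48, on a single probe set. AURKA, the spindle pole kinase, did the same, at 0.58 ± 0.17 with ERα17p and 0.64 ± 0.11 with estradiol (SD, n = 3). PLK4, which starts centriole duplication, was higher by 0.82 ± 0.36 and 0.65 ± 0.41 (SD, n = 3), and MELK, a kinase of dividing cells, by 0.84 and 0.68. Of 11 other genes of mitotic entry outside the 54, 3 were past the limit upward and 2 downward with ERα17p, and 3 upward and 1 downward with estradiol. The lower ones with ERα17p were PKMYT1, a kinase that restrains CDK1, at −0.59 and −0.75, and the phosphatase CDC25B at −0.77 and −0.50. The higher ones with ERα17p were WEE1 at 1.26 and 1.20, BORA at 1.20 and 1.28, and CKS2 at 0.61 and 0.56. With estradiol CDKN3, at 0.65, passed the limit and CKS2 did not. All of these were picked out after their values were seen.

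At the centromere and kinetochore, 6 of 9 genes among the 54 passed 1.5-fold upward in each comparison, against 6.88% and 6.48% of all genes. Of 24 other measured genes of this role outside the 54, 6 were past the limit upward and 3 downward with ERα17p. With estradiol 7 were past it upward and 2 downward. CENPA, the histone variant that marks where the kinetochore is built, had 0.076 on the ERα17p array, 0.12 on the estradiol array and −1.83 on the vehicle array, with 1 probe set. The difference from the vehicle was 1.90 with ERα17p and 1.95 with estradiol. The identifier of this probe set ends in _x_at, a type open to cross-hybridisation. HJURP, the chaperone that deposits CENPA, differed from the vehicle by 0.39 with ERα17p and 0.56 with estradiol. CENPN, which reads the CENPA nucleosome, lay slightly below the vehicle, at −0.10 ± 0.23 and −0.28 ± 0.34 (SD, n = 4). The kinetochore motor CENPE was higher by 1.18 and 1.24, and SGO2, a protector of centromeric cohesion, by 1.32 ± 0.78 and 1.21 ± 0.66 (SD, n = 2). CENPF, a large protein of the outer kinetochore, stood at 0.51 ± 0.22 with ERα17p and 0.60 ± 0.43 with estradiol (SD, n = 3).

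Among the 54 are 3 subunits of the NDC80 complex, the main microtubule anchor of the kinetochore, which lay close together. SPC25 had 0.24 with ERα17p, 0.0037 with estradiol and −0.67 with the vehicle. NUF2 had 0.18, −0.021 and −0.54 on the same arrays, and NDC80 itself 0.13, −0.029 and −0.64. All 3 were highest with ERα17p and lowest with the vehicle. Their differences from the vehicle ran from 0.72 to 0.91 with ERα17p and from 0.52 to 0.67 with estradiol. The remaining subunit, SPC24, is not among the 54 and differed from the vehicle by 0.096 and 0.10. It was picked out after its value was seen.

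The 5 spindle checkpoint genes among the 54, which delay anaphase until every kinetochore is attached, all lay above the vehicle. Of these 5, 3 passed 1.5-fold in each comparison. MAD2L1, the subunit that seizes the anaphase activator, had 0.12 with ERα17p, 0.059 with estradiol and −1.34 with the vehicle. It was higher than the vehicle by 1.46 ± 1.41 and 1.40 ± 1.44 (SD, n = 3), with a probe spread about as large as the difference. TTK, the kinase that starts the signal, was higher by 1.05 and 0.96, and BUB1B by 0.87 and 1.01. BUB1, the kinetochore kinase, stood at 0.49 ± 0.57 and 0.49 ± 0.63 (SD, n = 5), and BUB3, its partner, at 0.39 ± 0.85 and 0.39 ± 0.80 (SD, n = 6). For these last 2 the probe spread was larger than the difference. Of 7 other checkpoint genes outside the 54, 2 were past the limit upward and 1 downward with ERα17p, and 3 upward and 1 downward with estradiol. The lower one was MAD1L1, at −1.19 with ERα17p and −1.08 with estradiol, and it was picked out after its value was seen.

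The 3 genes of anaphase and protein destruction among the 54 were all below the 1.5-fold limit. CDC20, the anaphase activator that MAD2L1 holds back, had −0.046 with ERα17p, −0.027 with estradiol and 0.029 with the vehicle. UBE2C, the ubiquitin-conjugating enzyme of the anaphase-promoting complex, had 0.00035, −0.034 and −0.23. PTTG1, the securin that guards separase, stood at 0.074 above the vehicle with ERα17p and 0.068 with estradiol. Each of these 3 rests on a single probe set. Of 10 other measured genes of this role outside the 54, 3 passed the limit in each comparison. These were FBXO5, an inhibitor of the anaphase-promoting complex, at 1.07 with ERα17p and 1.04 with estradiol, ANAPC10, a subunit of it, at 0.84 and 0.62, and CDC27, another subunit, at 0.82 and 0.68. They were picked out after their values were seen.

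The subunits of the chromosomal passenger complex, which corrects wrong attachments and later marks the cleavage site, differed in size and sign. CDCA8, which holds the complex on chromatin, had −0.030 on the ERα17p array, 0.16 on the estradiol array and −0.69 on the vehicle array. Its single probe set was higher than the vehicle by 0.66 with ERα17p and 0.86 with estradiol. The kinase of the complex, AURKB, stood below the vehicle, at −0.23 ± 0.58 and −0.31 ± 0.74 (SD, n = 2). BIRC5, or survivin, was at 0.21 ± 0.63 and 0.28 ± 0.74 (SD, n = 4). CDCA8 was the 1 of the 3 that passed 1.5-fold, and the probe sets of both others pointed both ways. INCENP, the scaffold of the complex and not among the 54, was past the limit too, at 0.70 with ERα17p and 1.11 with estradiol on 1 probe set.

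Of the 8 kinesins, motors that walk along or take apart microtubules, 5 passed 1.5-fold with ERα17p and 4 with estradiol. KIF18A, which dampens chromosome movement at the spindle equator, had 0.20 with ERα17p, 0.12 with estradiol and −1.73 with the vehicle. KIF14, a motor of cytokinesis, had 0.25, 0.19 and −1.57. KIF18A was higher than the vehicle by 1.93 with ERα17p and 1.85 with estradiol, and KIF14 by 1.82 ± 0.95 and 1.77 ± 0.75 (SD, n = 2). Both were about as far from the vehicle on either treated array. KIF23, which bundles the central spindle, stood at 0.18 with ERα17p, −0.013 with estradiol and −1.14 with the vehicle, which made differences of 1.32 ± 0.82 and 1.12 ± 0.64 (SD, n = 2). KIF20A, another midzone motor, was higher than the vehicle by 1.31 and 1.15. KIF11, which pushes spindle poles apart, had 0.21 with ERα17p, −0.0070 with estradiol and −0.45 with the vehicle, and was past the limit with ERα17p alone. KIF20B, KIF2C and KIF4A lay between −0.092 and 0.16 in both comparisons.

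Of the spindle assembly and pole factors among the 54, 8 of 8 passed the limit with ERα17p and 7 of 8 with estradiol. The shares over all genes were 6.88% and 6.48%. Median differences of these 8 were 1.19 and 1.22. Of 14 other genes of this role outside the 54, 4 were past the limit upward with ERα17p and 3 with estradiol. FAM83D, which recruits a casein kinase to the spindle, had 0.025 with ERα17p, 0.063 with estradiol and −2.19 with the vehicle, on 1 probe set. ASPM, a protein of the spindle pole, had 0.057, 0.11 and −2.06 on the same arrays. FAM83D was higher than the vehicle by 2.21 with ERα17p and 2.25 with estradiol, or 4.63-fold and 4.76-fold, and ASPM by 2.12 ± 0.80 and 2.17 ± 0.75 (SD, n = 3). These ranked 8 and 10 of 19775 genes from the top with ERα17p, and 5 and 7 with estradiol. CKAP2L, a spindle protein, had 0.093 with ERα17p, 0.21 with estradiol and −1.41 with the vehicle, and HMMR, which links spindle factors to the pole, had 0.084, 0.12 and −1.24. CKAP2L was 2.82-fold and 3.06-fold higher than the vehicle, and HMMR was higher by 1.32 ± 0.61 and 1.36 ± 0.73 on the log2 scale (SD, n = 2). In both, the treated arrays lay together above the vehicle array. NUSAP1, a microtubule bundler, was higher than the vehicle by 1.06 ± 0.83 and 1.07 ± 1.02 (SD, n = 2), and DLGAP5, which stabilises spindle fibres, by 1.01 and 0.82. TPX2, the activator of AURKA, stood at 0.61 and 0.60, and CKAP2 at 0.67 ± 0.85 and 0.58 ± 0.65 (SD, n = 3).

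In cytokinesis, ANLN, the scaffold of the contractile ring, had 0.31 on the ERα17p array, 0.098 on the estradiol array and −1.89 on the vehicle array. It was higher than the vehicle by 2.20 ± 1.20 with ERα17p and 1.99 ± 1.49 with estradiol (SD, n = 2), and ranked 9 and 12 of all genes. ECT2, which activates RhoA at the cleavage site, was higher than the vehicle by 1.06 ± 1.06 with ERα17p and 1.15 ± 1.21 with estradiol (SD, n = 3). RACGAP1, the partner of KIF23 in the centralspindlin complex, differed by only 0.32 and 0.17. PRC1, which crosslinks midzone microtubules, differed by 0.23 and 0.39. Thus 2 of these 4 genes passed the limit in each comparison. Among genes of chromosome structure, TOP2A, which untangles sister DNA, had 0.13 with ERα17p, 0.023 with estradiol and −0.96 with the vehicle. Its difference from the vehicle, 1.09 ± 0.27 and 0.98 ± 0.28 (SD, n = 3), was several times its probe spread. MKI67, the widely used proliferation marker that coats mitotic chromosomes, differed from the vehicle by −0.060 ± 0.20 and 0.019 ± 0.21 (SD, n = 4). ESCO2, which acetylates cohesin in S phase, stood at 0.28 ± 0.52 and 0.25 ± 0.54 (SD, n = 4). MKI67 and ESCO2 were both within their probe spread.

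Probe sets of 1 gene often gave different sizes. For the 29 genes with more than 1 probe set, the median SD over probe sets was 0.11 on the ERα17p array, 0.093 on the estradiol array and 0.51 on the vehicle array. Over all 10523 such genes it was 0.10, 0.11 and 0.22. In these values the spread within a gene was thus largest on the vehicle array. Because the baseline of each probe set is unstated, the spread cannot be assigned to that array alone. The 4 probe sets of CDK1 stood at −0.46, −1.90, −1.89 and −3.03 there, while on both treated arrays they lay between −0.013 and 0.29. In MAD2L1 the 3 vehicle values were −3.03, −0.65 and −0.35, and in ANLN the 2 were −2.86 and −0.93. Of the 6 probe sets of BUB3, 1 was higher than on the vehicle array by 2.03 with ERα17p and 1.98 with estradiol, while the other 5 differed by −0.31 to 0.49. The 2 probe sets of AURKB disagreed in sign, at −0.65 and 0.18 with ERα17p and at −0.84 and 0.21 with estradiol. CCNB1 agreed best, with vehicle values of −0.73 and −0.78.

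All probe sets of a gene passed the 1.5-fold limit in 11 of the 29 genes with ERα17p, against 2.22% of the 10523 genes with more than 1 probe set, and in 9 with estradiol, against 1.68%. All probe sets lay on 1 side of 0 in 18 of the 29 genes with ERα17p, against 45.4%, and in 17 with estradiol, against 44.3%. In 0 of the 29 did probe sets pass the limit in opposite directions, and the share of all genes that did so was not computed. BIRC5 fell just short downward, running from −0.57 to 0.98 with ERα17p and from −0.58 to 1.12 with estradiol. Over the 111 probe sets, 62 were at least 1.5-fold higher with ERα17p and 1 lower, against 10.5% and 10.1% of all 41091 probe sets with 1 gene. With estradiol 58 were higher and 2 lower, against 10.4% and 9.99%. The 63 whose identifier ends in a plain _at had median differences of 0.70 with ERα17p and 0.61 with estradiol. The 37 ending in _s_at, which can match several transcripts, had 0.65 and 0.60. The 9 ending in _x_at, which are open to cross-hybridisation, had 0.49 and 0.32. The 2 ending in _a_at, from ANLN and MAD2L1, had 3.06 and 3.05, and were kept in the setting that follows. With both of the _s_at and _x_at types left out, 44 genes were left, of which 27 were at least 1.5-fold higher with ERα17p and 25 with estradiol. Then ECT2 stood at 0.27 with ERα17p, NEK2 at 0.33 with estradiol and PLK4 at 0.34 with estradiol, all under the limit. NUSAP1 stood at 0.48 with ERα17p and 0.35 with estradiol, also under it.

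**Figure D3:**
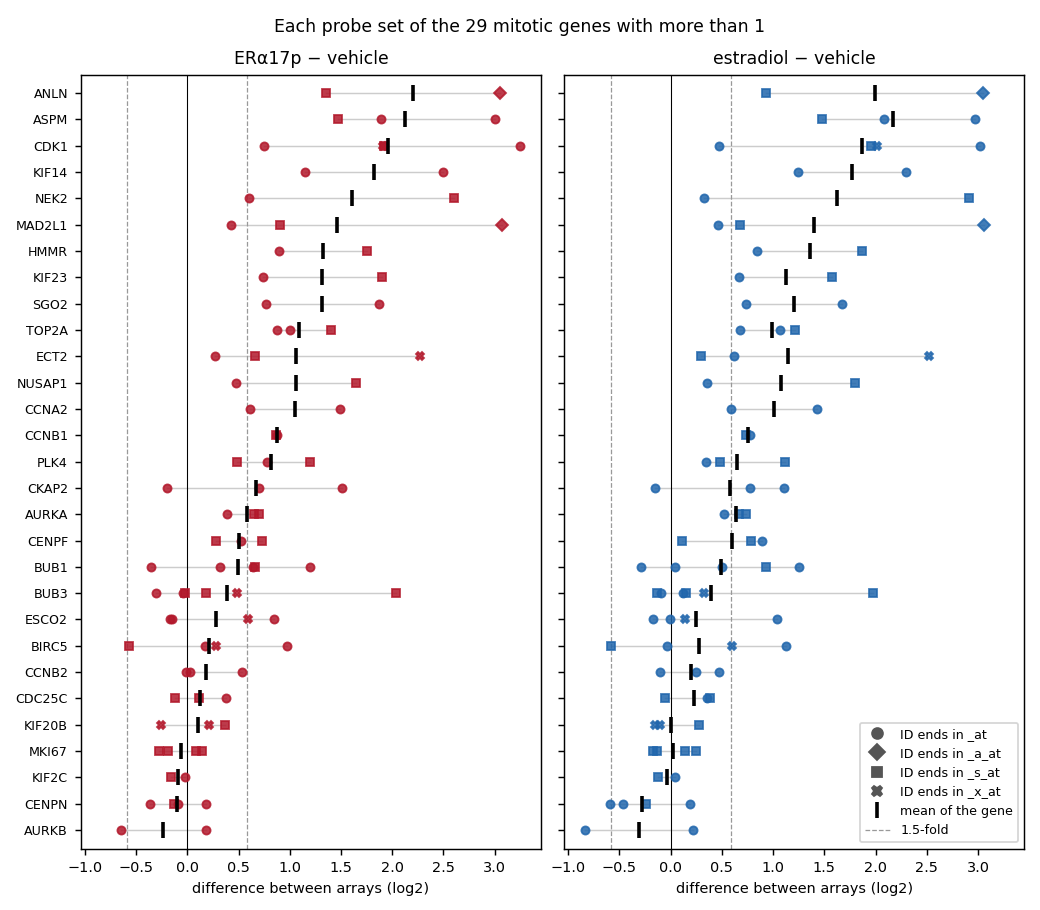
Difference from the vehicle array (log2) of every probe set of the 29 genes with more than 1, for ERα17p (left, red) and estradiol (right, blue). The shape gives the ending of the probe set's identifier, the black bar the mean of the gene and dashed lines 1.5-fold. The widest gene, MAD2L1, runs from 0.42 to 3.07 with ERα17p and from 0.46 to 3.06 with estradiol.

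Between the 2 treatments at the same molar dose and time, the genes differed little. In ERα17p minus estradiol, 0 of the 54 genes passed 1.5-fold upward and 0 downward, against 0.521% and 0.607% of all genes. At 2-fold the counts were also 0 and 0, against 0.0607% and 0.086%. Shares this small among all genes leave little room for a count above 0 among 54. The median difference was 0.0070, against 0.0062 over all genes, and 29 of 54 lay above 0, against 51.6%. All 54 lay between −0.20 and 0.23, inside the central 95% of all genes, which ran from −0.38 to 0.40. This comparison does not use the vehicle array. With 1 array each, noise between arrays was not measured, and the small differences do not show that the hormone and the peptide act alike.

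The genes highest with ERα17p relative to estradiol were SPC25 at 0.23, KIF11 at 0.22, ANLN at 0.21 ± 0.30 (SD, n = 2), NUF2 at 0.20 and KIF23 at 0.20 ± 0.18 (SD, n = 2). Lowest were PLK1 at −0.20 and CDCA8 at −0.19. The ANLN value came from 1 probe set at 0.42, while the other stood at −0.00092. NDC80, the partner of SPC25 and NUF2, stood at 0.16, and SPC24 at −0.0069.

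**Figure D4:**
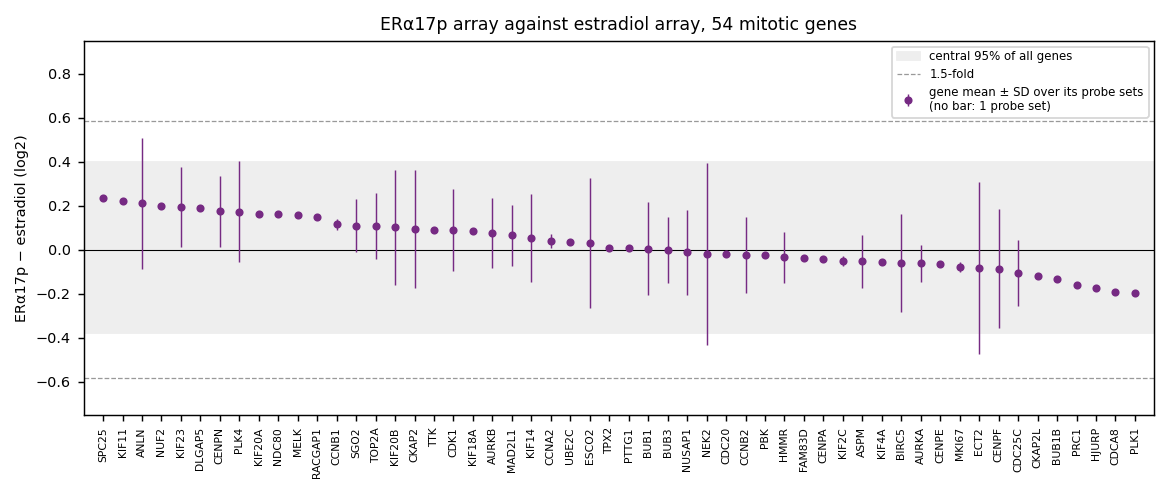
Difference between the ERα17p and the estradiol array (log2) for the 54 genes in order of size, with the SD over probe sets as bars where a gene has more than 1 probe set. The grey band is the central 95% of all 19775 genes (−0.38 to 0.40) and dashed lines are 1.5-fold. Every gene mean lies between −0.20 and 0.23.

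A further list of 110 mitotic genes outside this set, chosen by role, was read in the same way, and 105 were measured. With ERα17p 33 of them (31.4%) were at least 1.5-fold higher and 11 lower, with a median difference of 0.27. With estradiol 31 (29.5%) were higher and 8 lower, with a median of 0.22. Of all genes 6.88% and 6.48% were that much higher, and 8.76% and 8.42% that much lower. Both the 54 and this list were chosen with earlier results of these data known, so their shares cannot be ranked against each other. The highest were OIP5, which helps to load CENPA, at 1.69 with ERα17p and 1.59 with estradiol, KNSTRN, a kinetochore and spindle protein, at 1.55 and 1.62, and DEPDC1 at 1.59 ± 0.77 and 1.54 ± 0.88 (SD, n = 4). ZWILCH, a kinetochore protein, stood at 1.53 ± 2.16 with ERα17p (SD, n = 2), and CDCA2, a chromatin phosphatase subunit, at 1.36 ± 1.28 with estradiol (SD, n = 2). The lowest were MAD1L1, at −1.19 with ERα17p and −1.08 with estradiol, and PMF1, at −1.03 and −1.12. These 2 were the only genes of the list at least 2-fold lower, and were picked out after their values were seen. In ERα17p minus estradiol, DEPDC1B was past the limit at 0.75, and CENPQ stood at 0.54, SHCBP1 at 0.44 and INCENP at −0.41.

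Within that list, the 11 genes of factors that control mitotic transcription, activators and members of the repressive DREAM complex together, had medians of −0.030 with ERα17p and −0.078 with estradiol. FOXM1, a forkhead activator of mitotic genes, stood at −0.72 and −0.75, and MYBL2, which joins MuvB, at −0.70 and −0.76. LIN37, a MuvB subunit that acts in DREAM, was at −0.85 and −0.94, while LIN9, another MuvB subunit, was at 0.36 and 0.39. NFYB, a subunit of NF-Y, was at 1.07 and 0.78, but NFYA, another subunit of it, was at −0.030 and −0.078. TFDP1 was at 0.54 and 0.63. The genes named from these 11 were picked out after their values were seen. Genes of the G1 to S step, which act before mitosis, did not lie above the vehicle as a group. Of 53 measured, 6 (11.3%) were at least 1.5-fold higher with ERα17p, against 6.88% of all genes, and 10 (18.9%) lower, against 8.76%, at a median of −0.14. With estradiol 5 of 53 were higher, against 6.48%, and 9 of 53 lower, against 8.42%, at a median of −0.18. RFC3, of the clamp loader, stood at 1.46 ± 1.34 and 1.40 ± 1.52 (SD, n = 3). The replication licensing genes ORC1, at −1.24 and −1.20, and CDT1, at −1.22 ± 0.34 and −1.15 ± 0.025 (SD, n = 2), were lower.

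**Figure D5:**
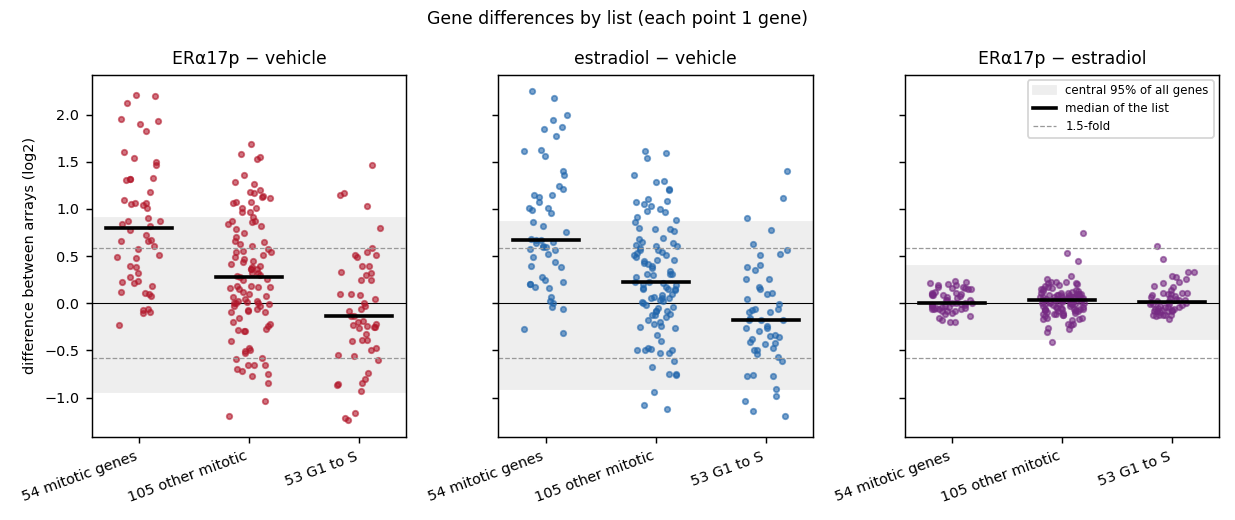
Differences between arrays (log2) for the 54 mitotic genes, 105 other mitotic genes and 53 genes of the G1 to S step, each point 1 gene and each bar the median of the list. The panels show ERα17p minus vehicle, estradiol minus vehicle and ERα17p minus estradiol, the grey band is the central 95% of all 19775 genes and dashed lines are 1.5-fold. The medians of the 54 genes are 0.80, 0.67 and 0.0070.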

How the data were processed

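T47D RNA was hybridised to Affymetrix HG-U133 Plus 2 arrays, 1 array each for ERα17p, estradiol and vehicle, as the labels state. Per the submitters' processing notes, RMA produced the deposited values, which were treated as log2 because RMA gives that scale. No source used here gives its version, the centring step or the baseline. The number of arrays limits the precision. The 62 control probe sets were left out of gene values. The platform annotation gave 41091 of 54675 probe sets 1 gene symbol. A gene's value was the mean over these probe sets, and 54 of 54 member symbols matched the current record of the same gene number. With 1 array per group no test was run, and genes were counted at 1.5-fold and 2-fold. The members and lists were chosen with earlier results of these data known. Every member was to be named, with values on each array for the 12 furthest from the vehicle in each comparison, the 6 furthest apart between treatments and 1 of each role. From other lists up to 4 per comparison were named, besides those marked above as picked out after their values were seen. Of the genes with several listed starts, the most upstream was used for promoters. Alternatives were the median over probe sets, leaving out _x_at and _s_at sets, centring, probe sets as units and a 2-fold limit. The gene computations were tested on simulated data. Python 3.11.15, numpy 2.4.6, pandas 2.3.3 and matplotlib 3.10.9 were used.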

Additional observations from a re-analysis of the deposited data

Results flagged for a closer look

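A probe set that the counts above leave out, because the annotation gives it to CENPA together with SLC35F6, was higher than on the vehicle array by 1.91 with ERα17p and by 2.08 with estradiol. It cannot be assigned to either gene. It was picked out as a signal in data outside the main measurement. The single probe set used for CENPA stood at 1.90 and 1.95.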

How the results depend on the processing

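Counts and medians of the 54 genes were recomputed with the median over probe sets, without probe sets ending in _x_at or _s_at (44 genes left), centred on the median of all genes, with probe sets as units, at 2-fold, and for genes whose probe sets all passed. No value past 1.5-fold changed sign under the alternatives run. For ERα17p minus vehicle, 62 of 111 probe sets were higher and 1 lower, at a median of 0.66, and 11 genes had all of more than 1 probe set past the limit. For estradiol minus vehicle, 58 probe sets were higher and 2 lower, 20 genes were at least 2-fold higher and 9 had all probe sets past the limit. These settings count other units, a higher limit or fewer genes. Without the _x_at and _s_at sets, AURKA stood at 0.52 in estradiol minus vehicle, under the limit. With the median over probe sets, AURKA (0.65) and BUB1 (0.64) passed it for ERα17p and CKAP2 (0.77) for estradiol, and PLK4 (0.48) did not. ERα17p minus estradiol kept counts of 0. No paired analysis was possible because each group had 1 array. No array could be left out of a group, and no absolute signal over background was kept.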
